A study of Solanum lycopersicum with 6 samples.

Results

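The genes described here are the auxin response factors (ARF) and the Aux/IAA genes of tomato (Solanum lycopersicum), with their transcripts measured by RNA-seq in dormant axillary buds, which sit at the base of each leaf and can grow into side branches. They were chosen by a list of 38 gene IDs, 17 ARF and 21 Aux/IAA, and 37 of them were among the 34075 genes of the authors' deposited tables. The ARF ID Solyc04g084210 had no row and was not analysed here, which left 16 ARF and 21 Aux/IAA genes. The family of each ID comes from the list, and the files pair no ID with a gene name, so single genes are given by ID.

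Auxin is the plant hormone that, made in the growing shoot tip, holds axillary buds back. Its nuclear response works through a pair of protein families. ARF proteins bind the promoters of auxin-regulated genes and activate or repress them, and Aux/IAA proteins bind ARFs and block activation together with co-repressors. When auxin is bound by its receptors of the TIR1/AFB type, Aux/IAA proteins are degraded and the ARFs are released. Many Aux/IAA genes are themselves switched on by auxin, so that their transcripts form part of a feedback loop.

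The 3 genotypes, each with 2 samples of buds from plants 25 days after germination, were miR156-OE, rSBP15 and the wild type MT, all in the cultivar labelled MT. In the labels the name of miR156-OE lacks the prefix miR, and the sample titles of rSBP15 read rSBP15OE. The line miR156-OE is known as the overexpressor of miR156, a microRNA that cleaves or represses SBP-box transcription factor transcripts. The line rSBP15 is known to express a form of the SBP-box gene SBP15 that miR156 cannot target. The labels give neither the promoter that drives each transgene nor the number of independent lines behind each genotype. A sample was a pool of some 20 buds taken from 4 to 5 plants, and the labels do not say whether the 2 samples of a genotype came from separate plantings, so p-values measure the spread between these samples only.

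Each of the lines was compared with MT by the authors, who deposited a log fold change (logFC) and a p-value per gene. Since no log base is stated, no value is turned into a fold. The tables give no value per library, so the level of a gene, the values of single samples, sequencing depth and the tissue's own marker levels cannot be shown, and the transgenes could not be checked by name. A gene at a logFC of exactly 0 is called undetected, and none of the 37 genes was at 0 in either table. The standard error (SE) beside each logFC was recovered from the authors' p-value, and it equals the residual SD between replicate libraries, with 2 libraries against 2. Where the size of a logFC exceeded the square root of 2 times its SE, the libraries of the genotypes compared cannot have overlapped. Where it was smaller than the SE they must have, and in between the tables do not decide. Between the lines, the SE in this rule is the square root of the sum of both recovered variances. That is the largest value the tables allow, so there the rule can show that libraries did not overlap but not that they did. Adjusted p-values are Benjamini-Hochberg values over all detected genes with a threshold of 0.05. In bulk buds, fewer cells that express a gene and less transcript per cell cannot be told apart.

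In miR156-OE buds, 14 of the 16 ARF genes had a logFC below 0 in the authors' deposited table, while 50.7% of all 24920 detected genes did. The family's median logFC was -0.17, against -0.00059 over all detected genes. By the test of single genes 0 of the 16 passed an adjusted p of 0.05 in the limma-type test, and 0.0201% of all detected genes did. An unadjusted p under 0.05 was listed for 3 ARF genes, all lower in miR156-OE, and for 13.2% of all detected genes (7.30% lower and 5.94% higher). The median size of the ARF values, 0.167, was close to their replicate spread, a median SE of 0.168. Of the 6 other settings tried, a fit of all 6 libraries at the smallest variance called 1 ARF gene and the others 0.

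The ARF gene furthest below 0 in miR156-OE was Solyc02g077560. The authors' deposited table lists it at -0.62 (SE 0.0575, 95% interval -0.82 to -0.42). The libraries of miR156-OE lay below those of MT without overlap. Its adjusted p was 0.197 in the limma-type test, and over the 4 other ways of testing it ranged from 0.0419 to 0.269. Solyc11g069500 had a logFC of -0.31 in the authors' deposited table (SE 0.0436, limma-type adjusted p 0.247), and its libraries did not overlap either. At the other end of the family, Solyc12g006340 was at 0.0045 in the authors' deposited table (SE 0.437), the widest spread of any ARF gene in this comparison. Its 95% interval of -1.51 to 1.52 leaves room for a sizeable change in either direction. The other 13 ARF genes ran from -0.54 to 0.00038, 12 of them below 0, with adjusted p-values of 0.299 or more. In all, the libraries of miR156-OE and MT cannot have overlapped in 4 of the 16 ARF genes, each of them lower in miR156-OE. Of all detected genes 37.9% had no overlap, 19.6% lower and 18.3% higher.

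In rSBP15 buds, 13 of the 16 ARF genes were below 0 in the authors' deposited table, against 49.5% of the 25329 detected genes. The median of the family was -0.079, against 0.00053 over all detected genes, and its spread was wide, from -0.87 to 0.35. At an adjusted p of 0.05, 1 ARF gene fell and 1 rose, which is 2 of 16, where 5.58% of all detected genes passed (2.94% lower and 2.65% higher). In a single set of simulated data, where 200 of 25283 tested genes were changed, this test called 64 of the changed genes and 11 unchanged genes. That share of false calls was larger than the threshold allows, so each call in rSBP15 against MT is read with caution. The share depends on how many genes change, which is not known for the buds, so it is not a rate for these calls. An unadjusted p under 0.05 was listed for 5 of the 16, and for 33.3% of all detected genes. The lines share the MT libraries, so the directions of either family in miR156-OE and rSBP15 are not independent of each other.

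The ARF gene that fell in rSBP15 was Solyc02g077560, the one furthest below 0 in miR156-OE. The authors' deposited table lists it at -0.63 (SE 0.0334, 95% interval -0.75 to -0.52, limma-type adjusted p 0.0389). Its rSBP15 libraries lay below those of MT without overlap. The adjusted p ranged from 0.00838 to 0.0523 over the other ways of testing, and the call was lost when undetected genes were counted in the adjustment. Both lines were measured against the same MT libraries, so the 2 values are not independent of each other.

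The ARF gene that rose was Solyc06g075150, by 0.14 in the authors' deposited table (SE 0.00974, limma-type adjusted p 0.0456). The rise was small, and its SE was the smallest of the ARF genes in this comparison. Its adjusted p ranged from 0.0201 to 0.0614 over the other ways of testing, again above 0.05 when undetected genes were counted. In miR156-OE the same gene was at -0.021 in the authors' deposited table (SE 0.0190).

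Larger ARF values in rSBP15 did not pass the threshold. Solyc11g069190 was at -0.87 in the authors' deposited table, the lowest of the family (SE 0.172, limma-type adjusted p 0.101). Solyc08g082630 was at -0.79 in the authors' deposited table (SE 0.140, limma-type adjusted p 0.0902). For both, the rSBP15 libraries lay below the MT libraries without overlap, and only 1.45% and 1.94% of all detected genes were lower. In miR156-OE these genes were at -0.20 and -0.14 in the authors' deposited table beside SEs of 0.186 and 0.229.

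On the higher side, Solyc07g016180 was at 0.35 in the authors' deposited table for rSBP15 (SE 0.103, limma-type adjusted p 0.152). Solyc07g042260 was at 0.34 in the authors' deposited table (SE 0.0648, limma-type adjusted p 0.0977). Their libraries did not overlap with those of MT. The remaining 10 ARF genes were all below 0, from -0.58 to -0.0031 in the authors' deposited table, with adjusted p-values of 0.201 or more. Over the family, the libraries of rSBP15 and MT cannot have overlapped in 10 of 16 genes, 3 higher and 7 lower in rSBP15, where 62.3% of all detected genes had no overlap.

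**Figure D1:**
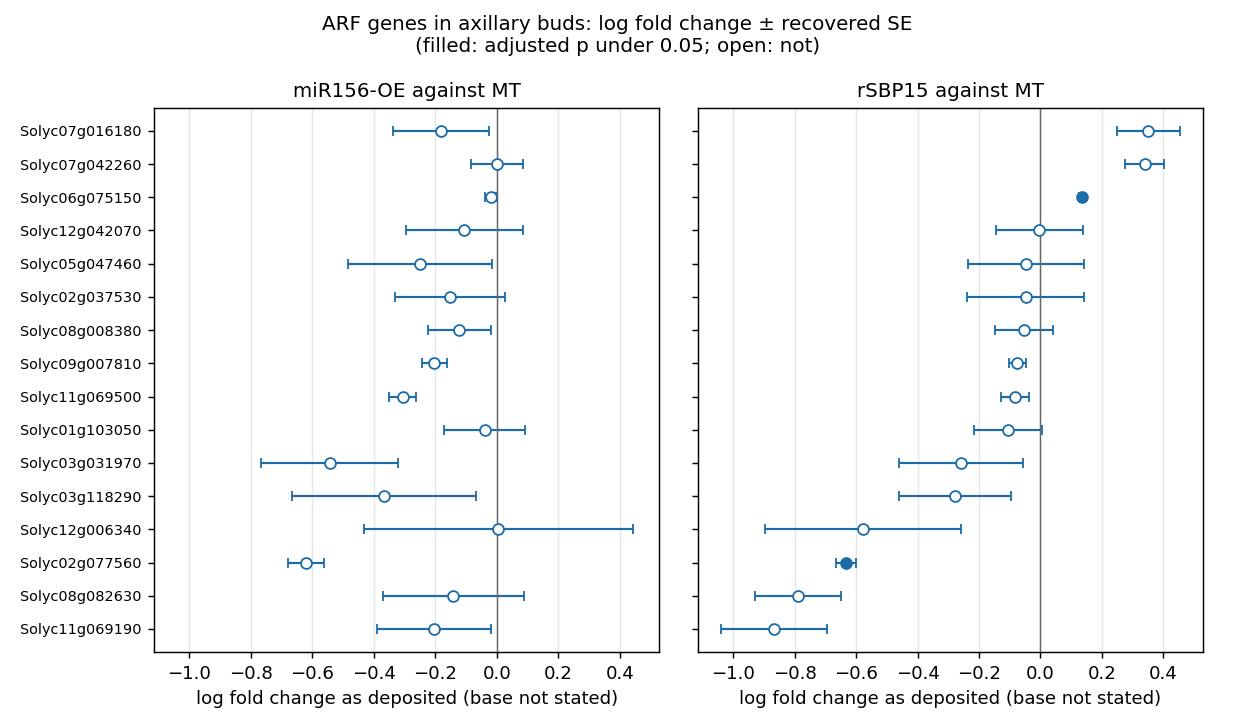
LogFC of each of the 16 ARF genes in miR156-OE against MT (left) and rSBP15 against MT (right), as deposited with the log base not stated. Points are the authors' logFCs, bars are the recovered SE (2 libraries against 2) and filled points passed an adjusted p of 0.05. In miR156-OE 14 of 16 points lie left of 0 with none filled, and in rSBP15 the filled points are Solyc06g075150 at 0.14 and Solyc02g077560 at -0.63.

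The Aux/IAA genes, which encode the repressors of ARFs, lay mostly on the other side of 0. In miR156-OE, 13 of 21 were above 0 in the authors' deposited table, against 49.3% of all detected genes, with a median of 0.14. The values ran from -0.15 to 0.66. Their median size, 0.140, was below their replicate spread, a median SE of 0.159. At an adjusted p of 0.05 in the limma-type test, 0 of the 21 passed, beside 0.0201% of all detected genes. An unadjusted p under 0.05 was listed for 3 of 21, all higher in miR156-OE, a share near the 13.2% of all detected genes (5.94% higher and 7.30% lower). Of the 6 other settings, the same fit at the smallest variance called 1 and the others 0. The libraries cannot have overlapped in 8 of the 21, 6 higher and 2 lower in miR156-OE. That share is close to the 37.9% of all detected genes (18.3% higher and 19.6% lower).

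The Aux/IAA gene with the smallest p in miR156-OE was Solyc03g120380. The authors' deposited table lists it at 0.25 (SE 0.0120, 95% interval 0.21 to 0.29, limma-type adjusted p 0.149). The miR156-OE libraries lay above those of MT without overlap, and over the other ways of testing the adjusted p ranged from 0.0481 to 0.203. In rSBP15 this gene was at 0.0014 in the authors' deposited table (SE 0.0226, 95% interval -0.076 to 0.079). The highest and lowest Aux/IAA genes in miR156-OE were Solyc06g008590 at 0.66 (SE 0.443) and Solyc06g066020 at -0.15 (SE 0.0717), both in the authors' deposited table. Their adjusted p-values were 0.635 and 0.517 in the limma-type test. The other 19 Aux/IAA genes ran from -0.14 to 0.46.

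In rSBP15 the Aux/IAA values spread far to the higher side. In the authors' deposited table, 14 of 21 were above 0, against 50.5% of all detected genes, with a median of 0.18 and a range of -0.30 to 2.61. A logFC of at least 0.5 was reached by 7 of 21, all higher in rSBP15, where 6.39% of all detected genes were at least that high. At or below -0.5 there were 0 of 21, against 5.43% of all detected genes. By the test the family gives fewer calls than these sizes: 1 of 21 passed an adjusted p of 0.05, where 5.58% of all detected genes did. This count depended on the setting. With the moderation refitted on detected genes, 6 of 21 passed (5 higher and 1 lower), beside 3711 of the 25329 detected genes. When undetected genes were counted in the adjustment, 0 of 21 passed, beside 544 of all genes. An unadjusted p under 0.05 was listed for 10 of 21, 8 higher and 2 lower in rSBP15, where 17.1% of all detected genes were higher and 16.2% lower at that level.

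The tables do not show how strongly a gene is transcribed. In the rSBP15 table, 1271 genes had a recovered SD equal to the size of their logFC within a relative 0.001, as genes detected in 1 of 4 libraries do. Their median size was 0.0035, so the comparison with all detected genes includes genes that lie close to 0 in this way. The members' replicate spread was also wider than that of all detected genes. In rSBP15 against MT the median SE was 0.105 for Aux/IAA and 0.125 for ARF genes, and 0.0515 over all detected genes. The genes close to 0 have small SEs too and enter that last median. The part of expression level in the members' sizes was not tested.

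The Aux/IAA gene that rose in rSBP15 was Solyc08g021820, by 0.18 in the authors' deposited table (SE 0.0110, 95% interval 0.15 to 0.22, limma-type adjusted p 0.0418). As with the ARF gene that rose, the change was small, and its SE was the smallest of its family in this comparison. Over the other ways of testing the adjusted p ran from 0.0311 to 0.120, and 1 of these 4 was under 0.05. In miR156-OE this gene was at 0.082 in the authors' deposited table (SE 0.0707).

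The highest member was Solyc06g008590, at 2.61 in the authors' deposited table for rSBP15 (SE 0.308, 95% interval 1.56 to 3.67). It ranked 15 from the top among all 25329 detected genes. The rSBP15 libraries lay above those of MT without overlap. Its adjusted p was 0.0636 in the limma-type test, above the threshold, and it was under 0.05 in 3 of the 4 other ways of testing, which ranged from 0.0184 to 0.0856. Solyc09g083290 was at 1.52 in the authors' deposited table (SE 0.391, limma-type adjusted p 0.132). Solyc06g008580 was at 1.24 in the authors' deposited table (SE 0.187, limma-type adjusted p 0.0775). Between 98.9% and 99.9% of all detected genes had a lower value than each of these 3 genes. Their rSBP15 libraries lay above those of MT, but none of the 3 passed the threshold.

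Further down, 4 Aux/IAA genes were higher in rSBP15 with an unadjusted p under 0.05. Solyc12g007230 was at 0.76 in the authors' deposited table (SE 0.157, limma-type adjusted p 0.106). Solyc03g121060 was at 0.65 in the authors' deposited table (SE 0.180, limma-type adjusted p 0.141). Solyc03g120500 was at 0.52 in the authors' deposited table (SE 0.0628, limma-type adjusted p 0.0649). These values lie above those of most members, and the libraries of the 3 genes did not overlap with those of MT, nor did those of the fourth gene, Solyc06g053830. Its value in the authors' deposited table was 0.33 (SE 0.0278, limma-type adjusted p 0.0517), the closest to the threshold without passing it. The authors' deposited table for miR156-OE has it at 0.23 (SE 0.0547). Solyc01g097290, without such a p in rSBP15, was at 0.64 there in the authors' deposited table (SE 0.212, limma-type adjusted p 0.173).

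The lowest Aux/IAA gene in rSBP15 was Solyc04g076850, at -0.30 in the authors' deposited table (SE 0.0812, limma-type adjusted p 0.137). The other low value with an unadjusted p under 0.05 was that of Solyc07g008020, at -0.24 in the authors' deposited table (SE 0.0313, limma-type adjusted p 0.0689). In miR156-OE these genes were at -0.041 and -0.12 in the authors' deposited table beside SEs of 0.116 and 0.0401. Of the 21 Aux/IAA genes, 14 had libraries that cannot have overlapped between rSBP15 and MT, 11 higher and 3 lower in rSBP15. Over all detected genes 31.6% were higher and 30.7% lower without overlap.

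The 7 Aux/IAA genes at 0.5 or more in rSBP15, picked for that size, were closer to 0 in miR156-OE, where they ran from -0.13 to 0.66 in the authors' deposited table and 6 of the 7 were above 0. Picking for a high value in rSBP15 favours values nearer 0 in miR156-OE, so this contrast is not read as a result. Over all detected genes the median size was also smaller in miR156-OE, 0.0596 against 0.109 in rSBP15. The picked rSBP15 values enter the direct comparison of the lines too, where 1 of the 7 passed the threshold, a share near the 14.4% of all genes.

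**Figure D2:**
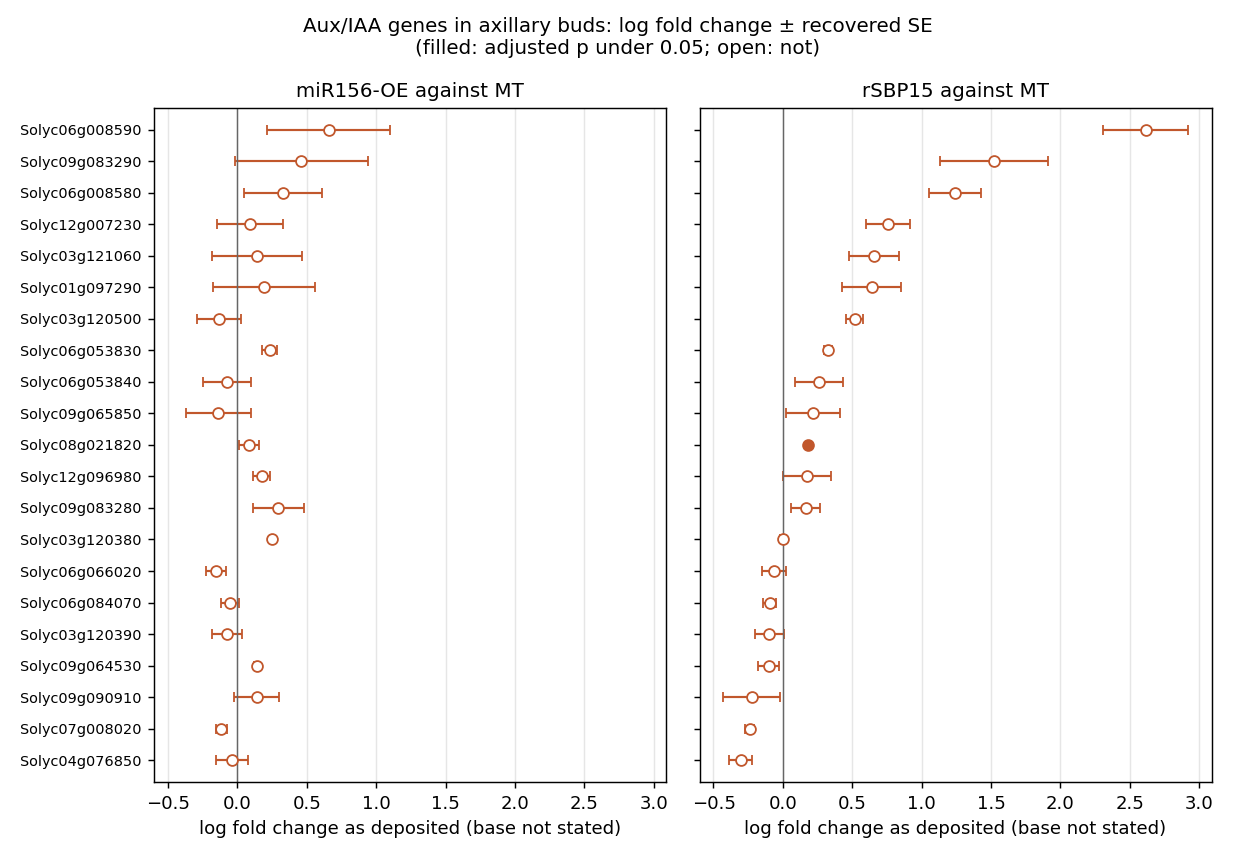
LogFC of each of the 21 Aux/IAA genes in miR156-OE against MT (left) and rSBP15 against MT (right), as deposited with the log base not stated. Points are the authors' logFCs, bars are the recovered SE (2 libraries against 2) and filled points passed an adjusted p of 0.05. The values in rSBP15 reach 2.61 at Solyc06g008590, and the only filled point is Solyc08g021820 at 0.18 in rSBP15.

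The distribution of each family shows how its members lay against all detected genes. In miR156-OE the interquartile range of the ARF genes lay between -0.26 and -0.089, while that of all detected genes lay between -0.054 and 0.068. In this line too, all detected genes include 1241 with a recovered SD equal to the size of their logFC, of median size 0.0036. The median SE was 0.168 for ARF genes and 0.0624 over all detected genes. The Aux/IAA genes had their interquartile range between -0.072 and 0.23. In rSBP15 the interquartile range of the Aux/IAA genes reached from -0.094 to 0.64, where that of all detected genes reached from -0.11 to 0.10. That of the ARF genes reached from -0.35 to -0.036. These are descriptions of the authors' deposited logFCs, and no test of the families was made.

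**Figure D3:**
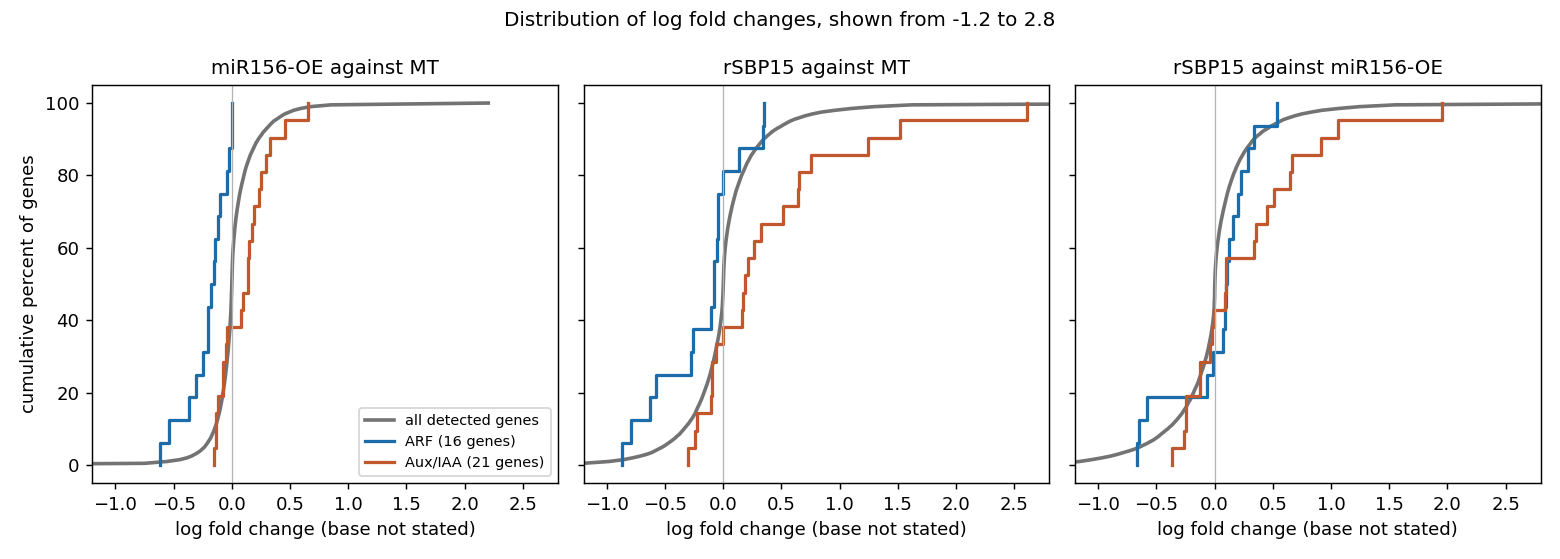
Cumulative percent of genes by logFC (base not stated) for miR156-OE against MT, rSBP15 against MT and rSBP15 against miR156-OE, in ARF genes (16), Aux/IAA genes (21) and all detected genes. The ARF curve lies left of all detected genes in miR156-OE, with a median of -0.17, and the Aux/IAA curve extends to the right in rSBP15, up to 2.61.

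The direct comparison asked which single members differed between the lines. Since both tables rest on the same MT libraries, the difference of the logFCs is that of rSBP15 over miR156-OE. It was tested in a limma fit of all 6 libraries, with the residual variance at the largest value the tables allow. For 25657 genes detected in either table, 14.4% had an adjusted p under 0.05 in this fit (7.39% higher and 7.04% lower in rSBP15). Of the members, 1 of 16 ARF genes (higher) and 2 of 21 Aux/IAA genes (1 higher and 1 lower) passed. Unadjusted p-values under 0.05 were found for 7 ARF and 7 Aux/IAA genes, and for 32.0% of all genes. A difference above 0 was found for 11 of 16 ARF and 12 of 21 Aux/IAA genes, and for 51.9% of all genes. The median difference was 0.10 for ARF and 0.095 for Aux/IAA genes, against 0.0016 over all genes.

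Solyc06g075150, the ARF gene that rose in rSBP15, was higher in rSBP15 than in miR156-OE by 0.16 (SE 0.0175, 95% interval 0.099 to 0.21, adjusted p 0.0255, limma). Solyc03g120500, an Aux/IAA gene, was higher in rSBP15 by 0.65 (SE 0.140, 95% interval 0.30 to 1.00, adjusted p 0.0499, limma). It had been at 0.52 in rSBP15 and -0.13 in miR156-OE in the authors' deposited tables. Over the 3 other ways of testing, the limma adjusted p of this gene ranged from 0.0321 to 0.167, and 1 was under 0.05. Its call was lost when undetected genes were counted in the adjustment. Solyc03g120380 was lower in rSBP15 than in miR156-OE, with a difference of -0.25 (SE 0.0209, 95% interval -0.31 to -0.18, adjusted p 0.0156, limma). This is the Aux/IAA gene at 0.0014 in rSBP15 and 0.25 in miR156-OE in the authors' deposited tables. For all 3 genes the libraries of rSBP15 and miR156-OE cannot have overlapped. All 3 calls were lost in a fit of the 4 libraries of these lines alone at its largest variance, where the adjusted p-values were 0.141, 0.167 and 0.112 and 0 of the 25657 genes passed.

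The ARF gene called lower in rSBP15, and lowest of its family in miR156-OE without a call there, did not differ detectably between the lines. For Solyc02g077560 the difference was -0.012 (SE 0.0543, 95% interval -0.15 to 0.13, adjusted p 0.941, limma). The interval is narrow beside its values of -0.63 in rSBP15 and -0.62 in miR156-OE in the authors' deposited tables.

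Among the other ARF genes, the lowest were Solyc11g069190, with a difference of -0.66 (SE 0.207, adjusted p 0.100, limma), and Solyc08g082630, with a difference of -0.65 (SE 0.219, adjusted p 0.116, limma). The highest was Solyc07g016180, with a difference of 0.53 (SE 0.153, adjusted p 0.0865, limma). It had been at 0.35 in rSBP15 and -0.18 in miR156-OE in the authors' deposited tables. Solyc07g042260 followed with a difference of 0.34 (SE 0.0871, adjusted p 0.0710, limma). In each of these 4 genes the libraries of the lines cannot have overlapped, which held for 7 of the 16 ARF genes and for 48.4% of all genes.

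Among the Aux/IAA genes the largest difference was that of Solyc06g008590, at 1.96 (SE 0.440, 95% interval 0.85 to 3.06, adjusted p 0.0542, limma). It ranked 52 from the top among the 25657 genes, and its adjusted p ranged from 0.0273 to 0.173 over the other ways of testing. Solyc06g008580 had a difference of 0.91 (SE 0.277, adjusted p 0.0946, limma) and Solyc12g007230 one of 0.67 (SE 0.234, adjusted p 0.125, limma). The lowest was Solyc09g090910 at -0.36 (SE 0.214, adjusted p 0.294, limma). The libraries of the lines cannot have overlapped in 11 of the 21 Aux/IAA genes, 7 higher and 4 lower in rSBP15, where 26.3% of all genes were higher and 22.1% lower without overlap.

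**Figure D4:**
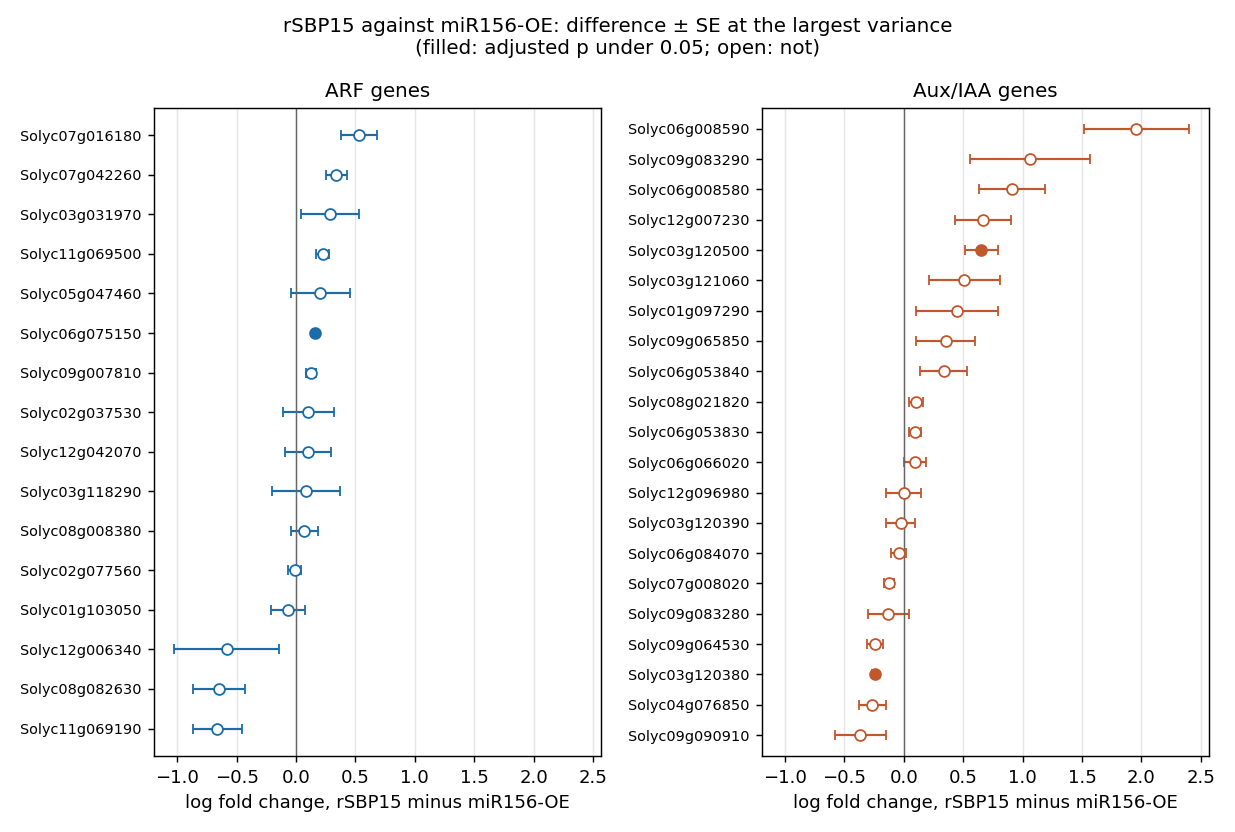
Difference of the logFCs, rSBP15 minus miR156-OE (base not stated), for the 16 ARF genes (left) and the 21 Aux/IAA genes (right). Bars are the SE at the largest residual variance of a fit of all 6 libraries, and filled points passed an adjusted p of 0.05. The filled points are Solyc06g075150 at 0.16, Solyc03g120500 at 0.65 and Solyc03g120380 at -0.25, while Solyc06g008590 at 1.96 is open.

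In the tomato ID scheme the digits after Solyc give the chromosome and the digits after g give the order of genes along it, in steps of 10. By this scheme 4 pairs of Aux/IAA genes are 10 apart and so neighbours by ID, 1 on chromosome 3, 2 on chromosome 6 and 1 on chromosome 9. The tables do not show how reads shared by similar neighbours were assigned, so values within a pair may not be independent. The pair Solyc06g008580 and Solyc06g008590 on chromosome 6 had the same sign in every comparison, at 1.24 and 2.61 in rSBP15 and 0.33 and 0.66 in miR156-OE in the authors' deposited tables. The other pair on chromosome 6, Solyc06g053830 and Solyc06g053840, was at 0.33 and 0.26 in rSBP15 but at 0.23 and -0.072 in miR156-OE in the authors' deposited tables.

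On chromosome 9, Solyc09g083280 was at 0.17 and Solyc09g083290 at 1.52 in rSBP15, and they were at 0.29 and 0.46 in miR156-OE, in the authors' deposited tables. On chromosome 3, Solyc03g120380 was at 0.0014 and its neighbour Solyc03g120390 at -0.098 in rSBP15, and they were at 0.25 and -0.072 in miR156-OE, in the authors' deposited tables. The differences within pairs were not tested.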

How the data were processed

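RNA was sequenced from pooled dormant axillary buds in 6 samples, 2 for each of 3 genotypes, grouped by their titles. Per the labels' protocols, poly(A) RNA was selected and stranded TruSeq libraries were made. Per the submitters' processing notes HISAT2 and StringTie were used. Build, annotation, expression unit, filter and test are not given in the sources used here. The authors deposited 2 tables that list, per the file headers, the logFC (log fold change) and P.Value (p-value) of every gene. Depth is unknown, and 0 of the IDs matched the supplied RefSeq table of 41476 genes, so no names, coordinates or sequences are given.

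The design planned for counts or deposited p-values, and the authors' p-values were used, adjusted by the Benjamini-Hochberg method over genes with a log fold change other than 0. They were matched by limma's moderated test of 2 libraries against 2 with no replicate block. Genes detected in 1 of 4 libraries have a residual variance equal to the squared log fold change, and 1224 of them in miR156-OE and 1262 in rSBP15 lay within 1e-06 in p of a curve with 0.347 and 0.360 prior degrees of freedom. limma 3.58.1 (R 4.3.3) returned the same priors from the recovered variances. These give the SE and 95% intervals of the reported values. That both tables share MT values rests on 402 genes with the same log fold change other than 0 in both. The fit of 6 libraries has 3 residual degrees of freedom, assumes the same spread in all genotypes, and its variance is known only within bounds. The recovery and fits were tested on a single set of simulated data with 200 changed genes, and its shares of false calls hold for that setting only. There the recovered variances matched those simulated, but the test of rSBP15 against MT as deposited gave a larger share of false calls than its threshold allows. So did fitting 6 libraries with the smallest variance. False calls stayed within the threshold when the moderation was refitted and when 6 libraries were fitted with the largest variance. No paired check of replicate numbers could be made.

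The members, the list and the rules were chosen with earlier results of these data known. Named are the genes past the threshold, those with an unadjusted p under 0.05 and a size of at least 0.3, the highest and lowest of each family, neighbours by ID, and a few others chosen after their values were seen. Other auxin pathway genes were to be taken from a table that pairs IDs with product names, and none are reported.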

Additional observations from a re-analysis of the deposited data

How the results depend on the processing

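No paired analysis was possible because values of single libraries are not in the tables. A left-out replicate, another normalization and another filter were therefore not run. Alternatives change the test and leave the deposited log fold changes as they are. Centring on the median of all detected genes changed no family median by as much as the replicate spread, and no member was listed at 0. In rSBP15 against miR156-OE the moderation already left out undetected genes.

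The calls depended on the test. In miR156-OE against MT, 0 ARF and 0 Aux/IAA genes were called, and 1 and 1 when 6 libraries were fitted at the smallest variance (Solyc02g077560 lower, Solyc03g120380 higher). All genes called numbered 5, and 0 when adjusted over all rows, 0 after refitting the moderation on detected genes, 0 or 222 when 6 libraries were fitted at the largest or smallest variance, 0 at a threshold of 0.01 and 1 at a size of at least 0.5. In rSBP15 against MT the 1414 genes became 544, 3711, 2842, 4999, 2 and 570 under the same settings in the same order. The 2 ARF genes became 0, 3, 2, 4, 0 and 1, and the 1 Aux/IAA gene became 0, 6, 3, 4, 0 and 0. With the moderation refitted, the added genes were Solyc08g082630, Solyc07g008020, Solyc06g053830, Solyc03g120500, Solyc06g008580 and Solyc06g008590. In rSBP15 against miR156-OE the 3702 genes became 2821 over all rows, 0 with the 4 libraries alone, 5961 at the smallest variance, 360 at 0.01 and 1759 at a size of at least 0.5. The 1 ARF gene became 1, 0, 5, 0 and 0, and the 2 Aux/IAA genes became 1, 0, 3, 0 and 1. Depth is unknown, so what it limits cannot be stated. The cause of these shifts was not tested beyond the settings named.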
